A study of Mus musculus with 12 samples.

Results

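The CCN proteins and the YAP/TEAD genes formed a set of 10 genes: Ccn1 to Ccn5, Ankrd1, Amotl2, Lats2, Yap1 and Tead1. They were taken by gene symbol, older names such as Cyr61 (Ccn1), Ctgf (Ccn2), Nov (Ccn3), Wisp1 (Ccn4) and Wisp2 (Ccn5) included, and each gene was read from the brightest of its probe sets. All 10 were found among 19938 genes, on 11 of 35557 probe sets, and all 10 passed the filter on low values. RNA came from embryonic fibroblasts of the mouse, which are cultured connective tissue cells, that were wild type or labelled MLL1 KO, a knockout of the histone H3 lysine methyltransferase MLL1 encoded by Kmt2a. Both genotypes had received the same pulse of 50% horse serum for 2 h, which aligns the circadian clocks of cultured cells, and were collected 18 h (CT18) or 30 h (CT30) after it. Each of the 4 groups held 3 Affymetrix arrays. The design asks how expression differs between the genotypes at these circadian times. The labels do not say how the gene was disrupted, how many embryos or lines were used, or whether replicates were separate cultures, so the p-values rest on differences among arrays that may be only technical.

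In the Hippo pathway a chain of kinases ending in LATS1 and LATS2 phosphorylates the coactivator YAP and keeps it in the cytoplasm. When the chain is inactive, as in spread cells on a stiff surface, YAP and its paralog TAZ enter the nucleus and bind TEAD transcription factors, and genes such as Ccn1, Ccn2, Ankrd1 and Amotl2 are transcribed. The CCN proteins are secreted, cysteine-rich proteins of the extracellular matrix that bind integrins, heparan sulphate and growth factors. In fibroblasts Ccn1 and Ccn2 are also known as genes induced quickly by serum and by TGF-beta.

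Replicate arrays correlated at 0.984 to 0.996 over the 13956 tested genes, and array median intensities ran from 273.3 to 311.8. Kmt2a, the targeted gene, had an intensity of 2069 to 2824 in the 6 wild-type arrays, 1959.7 to 2174 in the knockout arrays of 18 h and 1338 to 1584 in those of 30 h. Its log2 difference was -0.19 at 18 h (adjusted p = 0.108), -0.28 when replicate 3 of wild type at 18 h was left out (adjusted p = 0.0235) and -0.07 when replicate 2 was (adjusted p = 0.565). At 30 h the difference was -0.57 (adjusted p = 0.000111). Where the probes lie relative to the disrupted part is not stated, so these values do not check the labels. Of 10 fibroblast markers 8 passed the filter, Vim and Col1a1 among them, and Lum and Fap were dim in all groups, with group means of 41.8 to 46.6 and 48.3 to 67.9. Among those that passed, 3 were higher and 4 lower in the knockout at 18 h, beside 26.3% and 33.8% of all tested genes. The widest changes were in Dcn and Pdgfra. Dcn, which encodes the matrix proteoglycan decorin, went from 423 ± 88.8 to 5766 ± 276. Pdgfra, a platelet-derived growth factor receptor gene, went from 3811 ± 212 to 395 ± 42.9 (SD, n = 3 each). All 5 endothelial markers were below the filter, which is set on the mean over all 12 arrays, so none was tested. Of these, Kdr had 89.6 ± 11.1 and 92.3 ± 10.6 in wild type at 18 h and 30 h. In the knockout it had 290.1 ± 60.7 and 130 ± 17.3 (SD, n = 3 each). Group means of the others, Pecam1, Cdh5, Tek and Tie1, ran from 104 to 171. Markers of some other cell types also moved with genotype, and their part in the results was not tested. The summed intensity of 5 neural markers was 746 to 1004 in wild-type and 5852 to 6815 in knockout arrays, and that of 6 striated muscle markers was 1905 to 2265 and 3766 to 4211. At 18 h the neural genes Map2, Nes and Tubb3 were higher in the knockout, by 6.04, 5.66 and 1.52 on the log2 scale. Sox2 was at 0.01 and Gfap was below the filter. Of the muscle markers Tnnt2 was higher by 4.5 and Actc1 by 0.48 at 18 h. Tnnt2, at 69.6 and 85.8 in wild type, was likewise tested only through its knockout arrays. Myod1 was at 0.11, Des at 0.06 (-0.36 at 30 h), and Myog and Myh3 were below the filter. The summed intensity of 4 smooth muscle markers was 1495 to 1900.4 in wild type at 18 h and 5183 to 6499.5 at 30 h, and 3923 to 5206 and 5956 to 6665 in the knockout. Most of that sum was Acta2, with wild-type means of 1163 at 18 h and 5182 at 30 h. Myh11 had 215 and 209, and Tagln and Cnn1 were below the filter. For the genes of the set knockout 18 h replicate 1 lay outside the range of replicates 2 and 3, and values without it are given where a result rests on it.

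**Figure D1:**
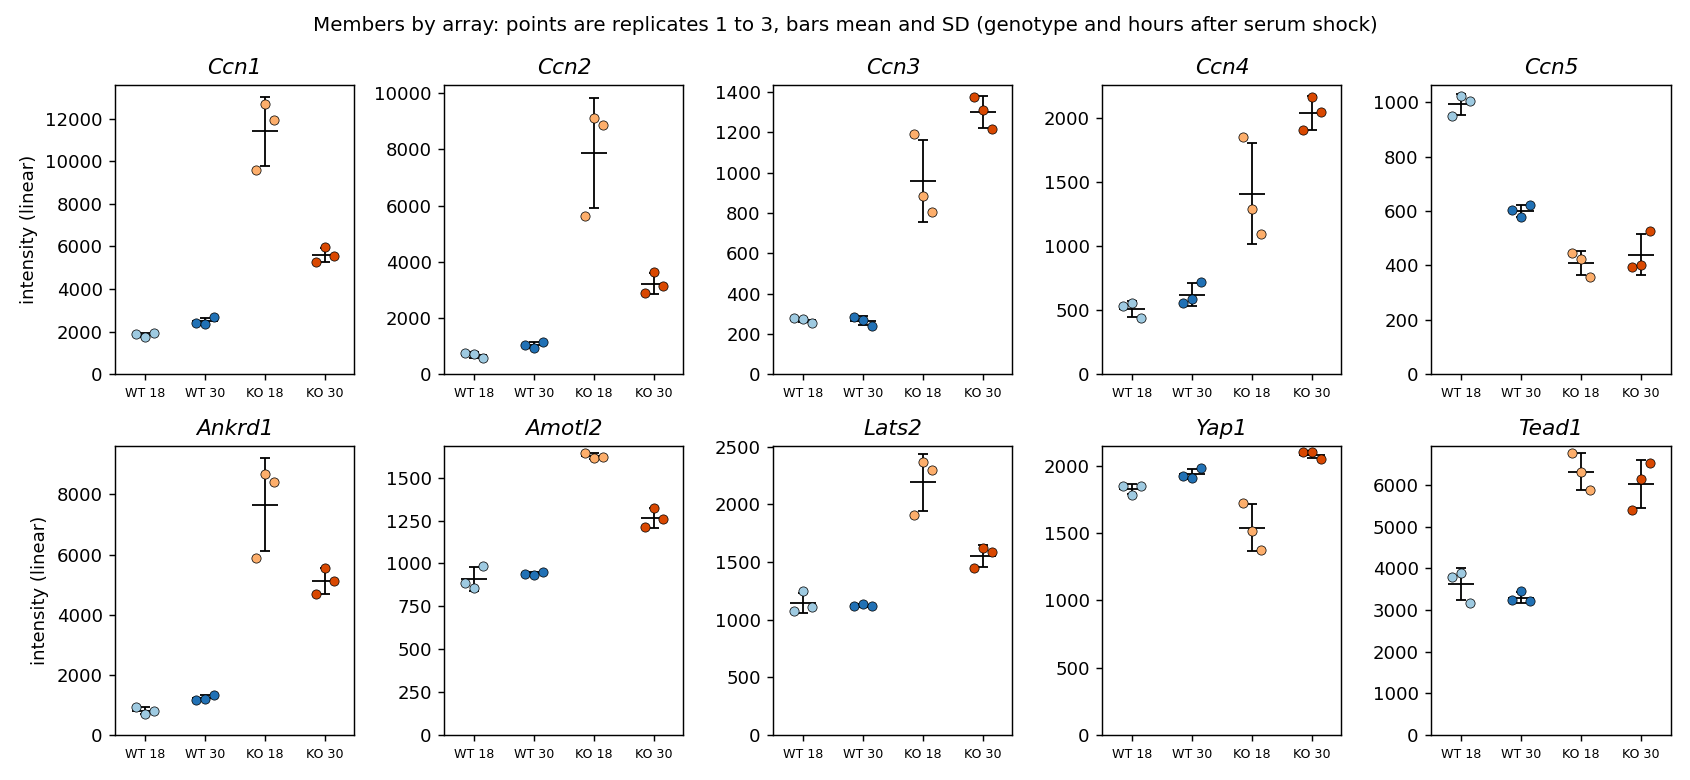
Intensity on a linear axis from 0 for each of the 10 genes in 12 arrays, by genotype (WT, wild type; KO, knockout) and hours after the serum pulse; points are arrays, bars the group mean and SD (n = 3). Ccn1, Ccn2 and Ankrd1 are highest in the knockout at 18 h, Ccn3 and Ccn4 in the knockout at 30 h, and Ccn5 in wild type at 18 h.

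At 18 h, 8 of the 10 genes were higher in the knockout than in wild type and 2, Ccn5 and Yap1, were lower. Over all tested genes 60.1% differed at that time, 26.3% higher and 33.8% lower. For each of the 10 genes the knockout and wild-type arrays lay apart, as they did for 63.1% of all genes. At 30 h 8 genes were higher, Ccn5 was lower and Yap1 did not pass, beside 52.9% of all genes called, 24.3% higher and 28.6% lower, and all 10 again lay apart, beside 61.5% of all genes. Averaged over both times 8 were higher, Ccn5 was lower and Yap1 did not pass, beside 29.4% of all genes higher and 35.8% lower. Without knockout 18 h replicate 1 Yap1 was called lower on average (-0.12, adjusted p = 0.0334, against -0.07 and 0.252 with all arrays). After quantile normalization the balance of all genes turned at 18 h, with 4267 higher and 4254 lower against 3672 and 4712. It also turned at 30 h, with 3994 higher and 3583 lower against 3390 and 3992, and on average, with 4852 and 4482 against 4099 and 4998. The median log2 difference of the 10 genes was 1.17 at 18 h and 1.02 at 30 h, and that of all tested genes was -0.03 and 0.02. In bulk RNA a change in the share of cells that express a gene and a change in the RNA per cell cannot be told apart.

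Ccn1 and Ccn2, the matricellular proteins most used as readouts of YAP activity, followed the same order of groups. Ccn1 (chromosome 3) had intensities of 1872, 1759 and 1929 in wild type at 18 h and 2396, 2374 and 2661 at 30 h. Knockout arrays gave 9596, 12708 and 11925 at 18 h and 5293, 5966 and 5544 at 30 h. No array of one group overlapped another group, and the knockout at 18 h lay highest. The genotype difference on the log2 scale was 2.60 ± 0.09 at 18 h (SE, 6.07-fold, adjusted p = 1.55e-13) and 1.17 ± 0.09 at 30 h (2.25-fold, adjusted p = 7.13e-09). Ccn2 (chromosome 10) had 762, 702 and 582 in wild type at 18 h and 1048, 935 and 1138 at 30 h. Its knockout arrays read 5636, 9134 and 8880.1 at 18 h and 2902, 3622 and 3145 at 30 h. Again the groups did not overlap, but knockout 18 h replicate 1 was well below the other two. The genotype difference of Ccn2 was 3.48 ± 0.15 at 18 h (SE, 11.1-fold, adjusted p = 4.04e-12), which ranked 92 from the top among 13956 genes, and 1.61 ± 0.15 at 30 h (3.06-fold, adjusted p = 1.14e-07). Without knockout 18 h replicate 1 the 18 h difference was 2.72 for Ccn1 and 3.70 for Ccn2.

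Ankrd1, Amotl2 and Lats2, targets of YAP and TEAD that act inside the cell, had their knockout maximum at 18 h as well. Ankrd1 (chromosome 19) encodes a stretch-responsive ankyrin repeat protein best known in cardiac muscle. Its intensities were 941, 693 and 793 in wild type at 18 h, 1176, 1209 and 1322 at 30 h, 5886, 8674 and 8410.4 in the knockout at 18 h and 4692, 5559.9 and 5107 at 30 h. The groups did not overlap, and knockout 18 h replicate 1 lay just above the 30 h arrays. The log2 difference between genotypes was 3.21 ± 0.13 at 18 h (SE, 9.23-fold, adjusted p = 1.59e-12) and 2.04 ± 0.13 at 30 h (4.10-fold, adjusted p = 7.43e-10). Among striated muscle markers Tnnt2, cardiac troponin T, went from 69.6 ± 9.42 in wild type to 1919 ± 29.8 in the knockout at 18 h (SD, n = 3 each), while Myog and Myh3 were below the filter and Myod1 had a log2 difference of 0.11 (adjusted p = 0.521). Tnnt2 itself passed the filter only through its knockout arrays. The part of muscle cells in the level of Ankrd1 was not tested.

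Amotl2 and Lats2 restrain YAP and are switched on by it. Amotl2, a scaffold at cell junctions, had 884, 856 and 988 in wild type at 18 h and 941, 935 and 951 at 30 h. Its knockout arrays had 1647, 1614 and 1621 at 18 h and 1212, 1324 and 1261 at 30 h. Its genotypes were apart at both times, by 0.83 ± 0.07 at 18 h (SE, adjusted p = 4.85e-08) and 0.42 ± 0.07 at 30 h (adjusted p = 0.000152). Lats2, the kinase that phosphorylates YAP, had 1075, 1247 and 1110.1 in wild type at 18 h and 1119, 1135 and 1116 at 30 h, against 1905, 2366 and 2300.2 and then 1448, 1625 and 1583 in the knockout. Its difference was 0.92 ± 0.09 at 18 h (SE, adjusted p = 1.23e-07) and 0.46 ± 0.09 at 30 h (adjusted p = 0.000344). In wild type the arrays of the 2 times overlapped for Amotl2 and for Lats2.

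TEAD proteins bind a short motif, and the bases before the start sites of Ccn1, Ankrd1 and Amotl2 are shown because they were higher in the knockout and hold that motif. Lats2 was higher too and is not shown because its windows lack it. RefSeq (GRCm38.p6) gave upstream sequence for 5 of the 10 genes, Ccn1, Ankrd1, Amotl2, Lats2 and Yap1. The TEAD motif searched was GGAATG on both strands, read as CATTCC on the opposite strand, in the 250 bases upstream of each start. It was present in 12.6% of 32851 such windows. Ccn1 held 1 match, starting 103 bases before the start site, Ankrd1 held 2, at 210 and 123 bases, Amotl2 held 1, at 65 bases, and Yap1 held 1, at 141 bases. The 2 windows of Lats2 held none. The AP-1 motif TGANTCA, present in 6.75% of windows, and the CArG box, the serum response factor motif, present in 1.47%, were found in none of these windows. A match is a run of letters and not a shown binding site. The Amotl2 window lies inside the annotated gene, which begins at base 102717091, so it precedes a later start site of that gene. The Lats2 window at chr14:57734419-57734668 (minus strand) also lies inside its gene, which spans bases 57689662 to 57746212. The other Lats2 window and that of Yap1 overlap the first annotated bases of their genes. The windows of Ccn1 (chr3:145649986-145650235, minus strand), Ankrd1 (chr19:36119845-36120094, minus strand) and Amotl2 (chr9:102717554-102717803, plus strand) read as follows, 5′ to 3′, with the TEAD motif in capitals.
Ccn1: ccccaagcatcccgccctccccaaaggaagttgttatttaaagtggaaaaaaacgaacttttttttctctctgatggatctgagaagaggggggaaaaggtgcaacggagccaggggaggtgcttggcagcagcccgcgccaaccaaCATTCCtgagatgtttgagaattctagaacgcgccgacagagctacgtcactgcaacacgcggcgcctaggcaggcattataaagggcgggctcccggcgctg
Ankrd1: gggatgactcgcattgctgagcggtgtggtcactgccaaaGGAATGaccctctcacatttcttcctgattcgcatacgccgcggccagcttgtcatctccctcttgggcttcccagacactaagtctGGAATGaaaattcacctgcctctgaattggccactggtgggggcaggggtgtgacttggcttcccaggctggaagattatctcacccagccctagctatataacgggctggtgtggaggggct
Amotl2: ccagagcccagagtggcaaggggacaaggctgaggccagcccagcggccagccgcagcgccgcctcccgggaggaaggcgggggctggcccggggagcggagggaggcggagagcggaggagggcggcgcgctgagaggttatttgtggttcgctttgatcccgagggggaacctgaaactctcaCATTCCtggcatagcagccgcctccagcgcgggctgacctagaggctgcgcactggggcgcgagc

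Ccn3 and Ccn4 were also higher in the knockout, but with their maximum at 30 h. Ccn3, a matricellular protein with roles in growth arrest and adhesion, had 277, 273 and 256 in wild type at 18 h and 284, 268 and 240 at 30 h. Knockout arrays gave 1191, 886 and 803 at 18 h and 1373, 1309.6 and 1217 at 30 h. All knockout arrays were above all wild-type arrays, and replicate 1 of knockout 18 h lay just below the 30 h arrays. The genotype difference was 1.76 ± 0.12 at 18 h (SE, 3.38-fold, adjusted p = 1.43e-09) and 2.23 ± 0.12 at 30 h (4.70-fold, adjusted p = 6.9e-11). Ccn4, a WNT-induced matricellular protein, had 535, 554 and 438 in wild type at 18 h and 557, 586 and 721 at 30 h, against 1851, 1293 and 1092 and then 1909, 2169.7 and 2051 in the knockout. Its difference was 1.42 ± 0.15 at 18 h (SE, 2.67-fold, adjusted p = 4.58e-07) and 1.70 ± 0.15 at 30 h (3.25-fold, adjusted p = 6.26e-08). Without knockout 18 h replicate 1 the 18 h values were 1.59 for Ccn3 and 1.20 for Ccn4.

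Ccn5 was the one CCN gene of the 5 that was lower in the knockout. It encodes a CCN protein that lacks the C-terminal domain of the other members. Its intensities were 949, 1023 and 1004 in wild type at 18 h, 602, 578 and 622 at 30 h, 445, 424 and 359 in the knockout at 18 h and 393, 400 and 526 at 30 h. Wild type at 18 h lay highest, wild type at 30 h next, and the 2 knockout groups overlapped below them. The genotype difference was -1.25 ± 0.11 at 18 h (SE, 2.38-fold lower, adjusted p = 3.68e-08) and -0.45 ± 0.11 at 30 h (1.36-fold lower, adjusted p = 0.00238).

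The coactivator and its DNA-binding partner differed from each other. Yap1 had 1851, 1783 and 1849 in wild type at 18 h, 1928, 1910.4 and 1983 at 30 h, 1725, 1519 and 1376 in the knockout at 18 h and 2101, 2103 and 2052 at 30 h. The knockout was thus lowest at 18 h and highest at 30 h. Its genotype difference was -0.25 ± 0.08 at 18 h (SE, adjusted p = 0.00985), which did not pass without knockout 18 h replicate 3 (-0.17, adjusted p = 0.0722) and was -0.33 without replicate 1 (adjusted p = 0.000421). At 30 h it was 0.10 with a 95% interval from -0.06 to 0.27 (adjusted p = 0.284), and 0.18 after quantile normalization (adjusted p = 0.0455). Tead1 had 3779.5, 3899 and 3172 in wild type at 18 h and 3240.5, 3445 and 3205 at 30 h, against 6764, 6323 and 5874 and then 5401, 6135 and 6535 in the knockout. All knockout arrays lay above all wild-type arrays, by 0.81 ± 0.08 at 18 h (SE, 1.75-fold, adjusted p = 3.46e-07) and 0.86 ± 0.08 at 30 h (1.82-fold, adjusted p = 1.97e-07), and in each genotype the times overlapped. The second Tead1 probe set read 2838 to 3492 in wild type and 4966 to 6319 in the knockout.

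**Figure D2:**
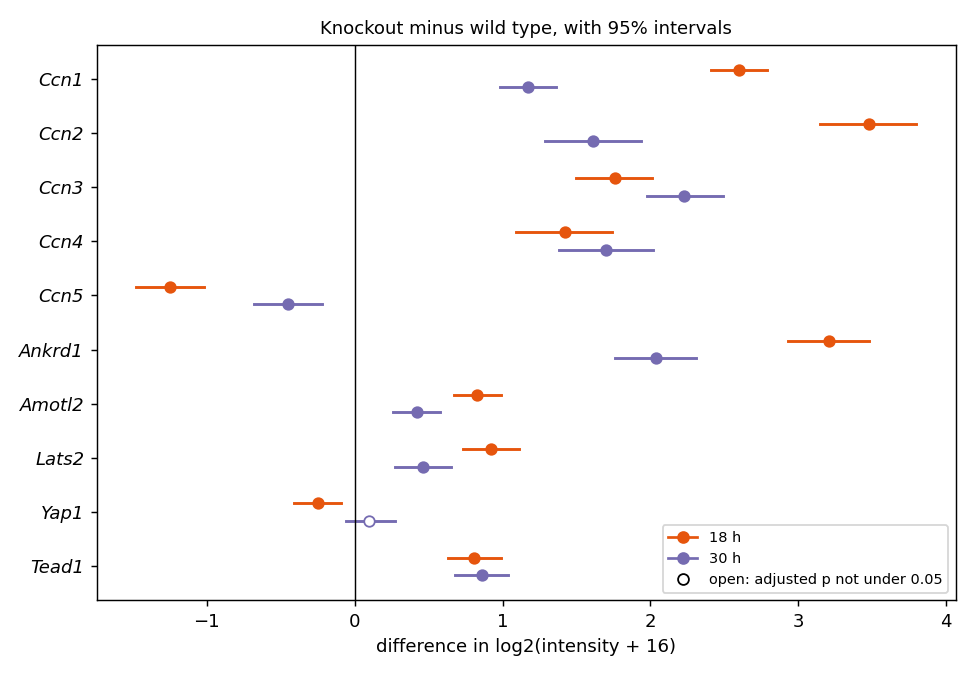
Difference in log2(intensity + 16) between knockout and wild type for each gene at 18 h and 30 h, with 95% intervals; filled points have an adjusted p under 0.05. Ccn1, Ccn2 and Ankrd1 have the wider gap at 18 h (2.60, 3.48 and 3.21), Ccn5 lies below 0 at both times, and Yap1 at 30 h is open.

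Between 18 h and 30 h in wild type, 4 of the 10 genes were called, beside 3.96% of all genes tested, 2.41% higher and 1.55% lower. Higher genes made up 60.9% of those calls, and 67.8% after array medians were set equal. Ankrd1 rose by 0.61 ± 0.13 on the log2 scale (SE, adjusted p = 0.0157), Ccn2 by 0.60 ± 0.15 (adjusted p = 0.0365) and Ccn1 by 0.41 ± 0.09 (adjusted p = 0.0161), and Ccn5 fell by 0.71 ± 0.11 (adjusted p = 0.0025). The arrays of the 2 times did not overlap for 6 of the 10 genes, where this held for 25.6% of all genes. Ccn5 ranked 17 from the lowest of 13956 time changes and kept its call in each fit without 1 array, with values of -0.74 to -0.68 and adjusted p-values up to 0.0174. The 3 rises were less firm. The call of Ccn2 was lost without any 1 of the 6 wild-type arrays (0.50 to 0.69, adjusted p = 0.0508 to 0.164). That of Ccn1 was lost when replicate 1 or 2 of wild type at 18 h, or replicate 1 or 3 of wild type at 30 h, was left out (0.36 to 0.44, adjusted p = 0.0513 to 0.0991). That of Ankrd1 was lost when replicate 2 of wild type at 18 h, or replicate 1 or 3 of wild type at 30 h, was left out (0.51 to 0.64, adjusted p = 0.0548 to 0.0917). Ccn4 at 0.28 (adjusted p = 0.357), Tead1 at -0.13, Yap1 at 0.09, Amotl2 at 0.05, Ccn3 at -0.03 and Lats2 at -0.02 did not pass.

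In the knockout 8 of the 10 genes changed between the times, 5 falling and 3 rising, beside 39.3% of all genes called, 20.9% higher and 18.4% lower at 30 h. Their arrays did not overlap for 8 of the 10 genes, beside 46.2% of all genes. Ccn2 fell by 1.26 ± 0.15 (SE, adjusted p = 1.16e-05), Ccn1 by 1.02 ± 0.09 (adjusted p = 8.65e-07), Ankrd1 by 0.56 ± 0.13 (adjusted p = 0.00261), Lats2 by 0.49 ± 0.09 (adjusted p = 0.00041) and Amotl2 by 0.36 ± 0.07 (adjusted p = 0.00113). Ccn4 rose by 0.56 ± 0.15 (adjusted p = 0.00766), Ccn3 by 0.45 ± 0.12 (adjusted p = 0.00667) and Yap1 by 0.44 ± 0.08 (adjusted p = 0.000296). The 5 target genes thus fell in the knockout while Yap1 rose. Tead1 at -0.07 (95% interval -0.25 to 0.11) and Ccn5 at 0.09 (-0.14 to 0.33) did not pass.

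**Figure D3:**
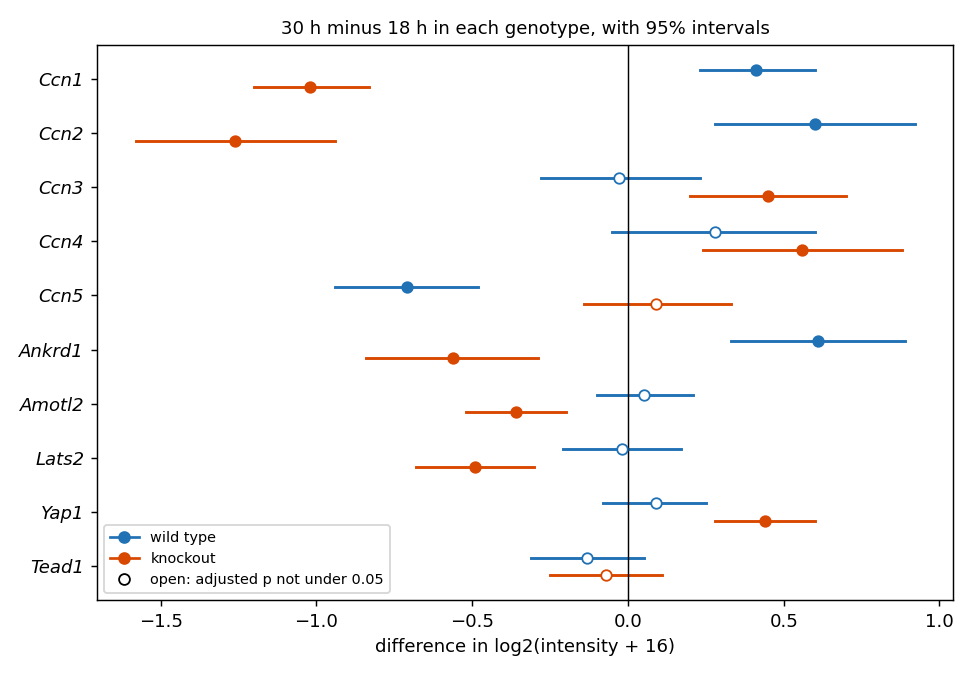
Difference in log2(intensity + 16) between 30 h and 18 h for each gene in wild type and knockout, with 95% intervals; filled points have an adjusted p under 0.05. For Ccn1, Ccn2 and Ankrd1 the wild-type value lies above 0 (0.41, 0.60 and 0.61) and the knockout value below 0 (-1.02, -1.26 and -0.56).

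The difference between the 2 time effects was itself tested, and 7 of the 10 genes were called, 2 above 0 and 5 below, beside 20.3% of all genes, 10.2% above and 10.1% below. It was -1.86 ± 0.21 for Ccn2 (SE, adjusted p = 6.12e-05), the seventh lowest of 13956 genes, -1.43 ± 0.13 for Ccn1 (adjusted p = 8.03e-06) and -1.17 ± 0.18 for Ankrd1 (adjusted p = 0.0006). Lats2 had -0.46 ± 0.13 (adjusted p = 0.016) and Amotl2 -0.41 ± 0.11 (adjusted p = 0.0115), and the Lats2 call was lost without knockout 18 h replicate 2 (-0.41, adjusted p = 0.0551). Ccn5, which fell in wild type, had 0.80 ± 0.16 (adjusted p = 0.00214). Yap1 had 0.35 ± 0.11 (adjusted p = 0.0308), a call lost in 8 of the 12 fits that left out 1 array (0.28 to 0.37, adjusted p = 0.0521 to 0.0918), namely those without replicate 1 of wild type at 18 h, any array of wild type at 30 h, replicates 2 or 3 of the knockout at 18 h, or replicates 1 or 2 of the knockout at 30 h, and also after array medians were set equal (0.31, adjusted p = 0.0566). Ccn3 at 0.48 (adjusted p = 0.0574) and Ccn4 at 0.28 (adjusted p = 0.41) did not pass with all arrays and passed without knockout 18 h replicate 1, at 0.64 (adjusted p = 0.00136) and 0.49 (adjusted p = 0.0326).

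Knockout 18 h replicate 1 lay outside the range of replicates 2 and 3 for all 10 genes. For 8 of them it was on the side of the 30 h arrays, and Amotl2 and Tead1 were the others. Of 3 arrays 1 often lies outside the range of the other 2. How often this array did so over all tested genes was not counted. On the log2 scale it had gone 0.316 of the way from the mean of replicates 2 and 3 to the 30 h mean for Ccn1, 0.455 for Ccn2, 0.724 for Ankrd1, 0.496 for Lats2, 0.799 for Ccn3, 0.820 for Ccn4 and 0.482 for Yap1. Without this array the knockout time changes were -1.48 for Ccn2, -1.14 for Ccn1, -0.74 for Ankrd1, -0.58 for Lats2, -0.35 for Amotl2, 0.61 for Ccn3, 0.77 for Ccn4 and 0.52 for Yap1, with 8 genes called as before. The genotype differences at 18 h were then 3.39 for Ankrd1, 1.02 for Lats2, 0.82 for Amotl2, 0.76 for Tead1 and -1.31 for Ccn5. Of the 3 macrophage and blood markers tested, Cd68 fell over time in the knockout, by 1.42 ± 0.21 (SE, adjusted p = 6.33e-05), and Csf1r at -0.06 (adjusted p = 0.72) and Itgam at 0.00 (adjusted p = 0.983) did not pass. The summed intensity of those 5 markers was 2093 to 3732 in the knockout at 18 h, 1507 to 1597 at 30 h and 1606 to 1939 in wild type, with Ptprc and Adgre1 below the filter, and its part in the result was not tested.

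Over the 12 arrays Ccn1 and Ccn2 were each other's closest match of all tested genes, with a Pearson r of 0.996. The next for Ccn1 were the fatty acid elongase Elovl5 (r = 0.993) and Cth, an enzyme of cysteine synthesis (r = 0.992), and for Ccn2 the transcription factor Ets1 (r = 0.994) and Cth (r = 0.993). Cth went from 97.4 ± 9.45 in wild type to 993 ± 179 in the knockout at 18 h and had 453 ± 18.8 in the knockout at 30 h (SD, n = 3 each). Closest to Ankrd1 were the growth factor gene Hbegf (r = 0.995), the mitotic gene Cdca8 (r = 0.995) and Mlf1 (r = 0.994). Amotl2 ranked 32 and Ankrd1 ranked 92 in likeness to Ccn1, while Ccn3 ranked 1993 (r = 0.834) and Ccn4 ranked 2413 (r = 0.783). These correlations describe 12 arrays that fall into 2 genotypes and 2 times, and carry no test.

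The paralogs of the coactivator and of TEAD1 did not move as one. Wwtr1, which encodes TAZ, had intensities of 2672 ± 59.7 and 2721 ± 45.4 in wild type at 18 h and 30 h and 2855 ± 133 and 2251 ± 31.2 in the knockout (SD, n = 3 each). It fell by 0.34 ± 0.06 over time in the knockout (SE, adjusted p = 0.000308). Tead4 was higher in the knockout by 1.97 ± 0.10 at 18 h (adjusted p = 4.86e-11) and 2.35 ± 0.10 at 30 h (adjusted p = 5.21e-12), from 154 ± 21.8 to 651 ± 70.9 at 18 h (SD, n = 3 each). Tead2 was higher by 0.97 and 1.08 (adjusted p = 1.19e-08 and 3.85e-09). Tead3 had a difference of -0.11 at 18 h (adjusted p = 0.364) and was higher by 0.38 at 30 h (adjusted p = 0.00279). Vgll3, a cofactor that binds TEAD proteins, was higher in the knockout by 0.65 at 18 h (adjusted p = 5.94e-05) and had a difference of -0.50 at 30 h (adjusted p = 0.00092). Of the 7 paralogs and cofactors 3 were higher and 0 lower at 18 h, and 3 were higher and 2 lower at 30 h, beside 60.1% and 52.9% of all genes called at those times.

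Upstream in the pathway the changes went both ways. Averaged over both times, 7 of 20 tested Hippo kinases and regulators were higher in the knockout and 8 were lower, with a median of -0.05, beside 65.2% of all genes called and an all-gene median of -0.0033. After quantile normalization 7 were higher and 7 lower, with a median of 0.03. Wwc1, which encodes the scaffold KIBRA, was higher by 2.39 ± 0.08 (SE, adjusted p = 3.69e-14) and the cadherin Dchs1 by 1.35 ± 0.08 (adjusted p = 7.15e-11). Ptpn14, a phosphatase that binds YAP and is itself a YAP target, had a difference of -1.19 ± 0.06 (adjusted p = 1.61e-11), and Nf2, which encodes the membrane-linked activator Merlin, of -0.76 ± 0.10 (adjusted p = 3.19e-06). Lats1 differed by -0.33 (adjusted p = 0.00043), the opposite sign to Lats2. By time, Nf2 was at -1.21 at 18 h and -0.31 at 30 h (adjusted p = 1.04e-06 and 0.0754). Lats1 was at -0.50 and -0.15 (adjusted p = 0.000242 and 0.197), so neither gene passed at 30 h. Over time in the knockout Nf2 rose by 0.97 and Ajuba, an inhibitor of LATS, by 0.66, while the protocadherin Fat4 fell by 1.04 (adjusted p = 5.11e-05, 7.08e-05 and 2e-06). In wild type 0 of the 20 genes passed limma's test over time, with values from -0.25 to 0.25. This is near the share of all genes called there, 3.96%. Of the 20 genes 2, Ajuba and Frmd6, had an unadjusted p under 0.05 by that test.

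Of 17 other YAP/TAZ target genes 10 were higher in the knockout on average and 5 lower, with a median of 0.39, beside 29.4% and 35.8% of all genes. Igfbp3, an IGF binding protein, was higher by 1.97 ± 0.11 (SE, adjusted p = 5.94e-11) and Tgfb2, a TGF-beta ligand, by 1.79 ± 0.07 (adjusted p = 4.29e-13), while the matrix protein gene Ccdc80 was at -2.09 ± 0.05 (adjusted p = 7.17e-16) and the ectonucleotidase gene Nt5e at -1.78 ± 0.07 (adjusted p = 1.28e-12). Between the times in the knockout 7 of the 17 fell and 2 rose, beside 18.4% and 20.9% of all genes. Gadd45a, a stress-responsive growth arrest gene, fell by 2.04 ± 0.18 (adjusted p = 1.08e-06), which took its genotype difference from 0.93 at 18 h (adjusted p = 0.000288) to -1.45 at 30 h (adjusted p = 3.85e-06). Asap1 rose by 0.52 (adjusted p = 0.00254).

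Among 8 tested receptors of CCN proteins 4 were higher on average and 2 lower, a share near the 65.2% of all genes called. The integrin genes Itga6 and Itgav were higher by 1.66 ± 0.09 and 0.84 ± 0.05 (SE, adjusted p = 3.33e-11 and 3.4e-10), and Itgb3 differed by -1.06 ± 0.09 (adjusted p = 9.84e-09). Over time in the knockout 5 of the 8 fell, and 3 without knockout 18 h replicate 1, beside 18.4% of all genes with all arrays. Itgb3 fell by 1.07 ± 0.12 (adjusted p = 7.92e-06), from 571 ± 86.0 to 265 ± 46.9 (SD, n = 3 each). Of 11 TGF-beta pathway genes 8 were higher and 2 lower on average, beside 29.4% and 35.8% of all genes, led by Skil, a repressor of SMAD proteins, at 2.23 ± 0.07 (SE, adjusted p = 5.77e-14), with the coreceptor gene Tgfbr3 at -1.66 ± 0.07 (adjusted p = 1.43e-12). Of 8 tested genes of serum response factor and its cofactors 4 were higher and 2 lower, also near the 65.2% of all genes called. The contractile genes Tpm1 and Myl9 were each higher by 1.08 (adjusted p = 7.98e-12 and 9.2e-09), and the cofactor genes Mrtfb and Mrtfa were at -0.67 and -0.52 (adjusted p = 1.8e-07 and 1.46e-06). Acta2, smooth muscle actin, rose over time in both genotypes, by 2.14 ± 0.13 in wild type and 0.51 ± 0.13 in the knockout (SE, adjusted p = 2.84e-07 and 0.00504).

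Other genes of these lists also changed with time. In the knockout Ccdc80 fell by 0.95 ± 0.07, Tgfb1 by 0.63 ± 0.10, Tgfb2 by 0.50 ± 0.10, the integrin gene Itga5 by 0.40 ± 0.08 and Wwc1 by 0.39 ± 0.11 (SE, adjusted p = 2.21e-07, 0.000177, 0.000776, 0.000581 and 0.00931). The receptor gene Tgfbr2 rose by 0.46 ± 0.11 and Myof, a membrane repair gene, by 0.22 ± 0.05 (SE, adjusted p = 0.00274 and 0.00328). Tgfb3 was at 0.28 (adjusted p = 0.0307), and its call was lost without replicate 2 or 3 of the knockout at either time (0.21 to 0.30, adjusted p = 0.0501 to 0.164). Vgll3 fell by 0.70 in the knockout (adjusted p = 0.000108) and was at 0.46 in wild type (adjusted p = 0.0283), with a difference between them of -1.15 (adjusted p = 0.000191). Ccdc80 fell in wild type as well, by 0.42 ± 0.07 (SE, adjusted p = 0.00463). The wild-type calls of Vgll3, Actg2 (0.52, adjusted p = 0.0321), Tgfb2 (-0.37, adjusted p = 0.0441) and Tgfbr3 (-0.40, adjusted p = 0.0343) were each lost without any 1 of the wild-type arrays, replicate 3 of 18 h excepted for the last 3 genes. Their values in those fits ran from 0.39 to 0.51, 0.45 to 0.58, -0.43 to -0.33 and -0.44 to -0.35, with adjusted p-values of 0.0504 to 0.171. With all arrays the Tgfb2 call was also lost at an offset of 64, without the filter and under both other scalings. The same held without the intensity trend and with the replicate block (adjusted p = 0.0506 to 0.063). Leaving out replicate 2 of the knockout at either time lost it too, and at 30 h that of Tgfbr3 as well (adjusted p = 0.053). Between the genotypes, averaged over both times, Lrp1, an endocytic receptor gene, was at -0.29 and the receptor gene Tgfbr1 at -0.62 (adjusted p = 2.53e-05 and 1.11e-07).

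**Figure D4:**
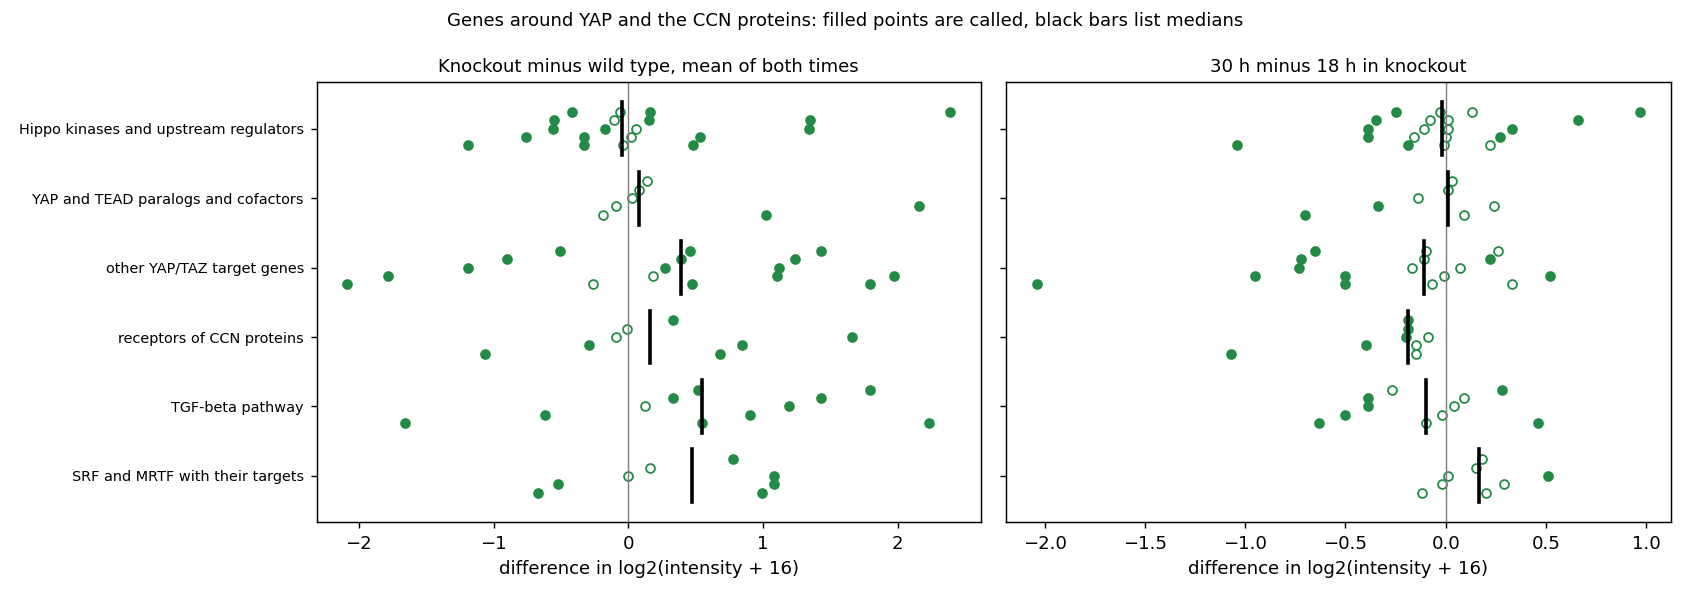
Difference in log2(intensity + 16) for the genes of 6 lists around YAP and the CCN proteins, as the genotype difference averaged over both times (left) and the time change in the knockout (right); each point is a gene, filled where the adjusted p is under 0.05, and black bars are list medians. Genes of each list lie on both sides of 0 on the left, with medians from -0.05 for the Hippo kinases and regulators to 0.55 for the TGF-beta pathway.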

How the data were processed

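The authors deposited a linear intensity for every probe set of the 12 arrays. Per the submitters' processing notes these came from Expression Console 1.1 with PLIER 2.0, and how arrays were normalized to each other is not given. Groups came from the sample titles. Of 35557 probe sets, 21789 had 1 gene symbol, 1621 several and 12147 none, and 21698 were matched by Entrez number to RefSeq (GRCm38.p6). Values were taken as log2(intensity + 16), so folds of dim genes are understated. Each gene was its probe set of highest mean, and 13956 genes at or above the 30th percentile (intensity about 175) were tested. The percentile was taken on the mean over all 12 arrays, so a gene dim in wild type could pass through its knockout arrays.

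A model of the 4 group means, over all arrays, was fitted in R 4.3.3 by limma 3.58.1, using lmFit and eBayes with a trend on intensity, which left 8 residual degrees of freedom. P-values are two-sided, Benjamini-Hochberg adjusted over all tested genes and called under 0.05. The fit was also run on simulated data with independent noise and few changed genes. Most genes were called here at 18 h, so that run does not bear on these calls. The number of arrays limits the precision. Named genes were all 10 members, the paralogs Wwtr1, Tead2, Tead3, Tead4 and Lats1, up to 2 rises and 2 falls per list and comparison, and the 3 genes most correlated with Ccn1, Ccn2 and Ankrd1. Frmd6, Cd68 and the other marker genes named were chosen after their values were seen. Some genes of the lists were not analysed here. The members, lists and rules were chosen with earlier results of these data known. Alternatives were offsets, filters, scalings, variance models, probe set rules, the replicate block and arrays left out.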

Additional observations from a re-analysis of the deposited data

Results flagged for a closer look

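For 7 of the 10 genes the change from 18 h to 30 h differed between the genotypes by limma's test of the difference (knockout minus wild type, log2). The values were -1.86 for Ccn2, -1.43 for Ccn1, -1.17 for Ankrd1, -0.46 for Lats2 and -0.41 for Amotl2, whose knockout time changes were all falls, and 0.80 for Ccn5 and 0.35 for Yap1. For Ccn1, Ccn2 and Ankrd1 the change had opposite signs in the 2 genotypes. For Ccn5 the change lay in wild type, and for Lats2, Amotl2 and Yap1 in the knockout, where the wild-type value did not pass. The genotypes were not compared within a batch, because the labels give none.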

How the results depend on the processing

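In the comparisons of genotype, the number of the 10 genes called was 9 or 10 at 18 h, at 30 h and averaged under every alternative run, Yap1 being the gene that moved. In the knockout over time it was 8 in all of them. For the difference of time effects it was 7 in the main fit and 5 to 9 when 1 array was left out. After array medians were set equal 1 gene was above 0 and 5 below, Yap1 being lost. In wild type over time 4 genes were called in the main fit, and 1 to 4 when 1 array was left out. The count over all genes in that comparison was 553, and it was 997 with only the arrays compared and 157 to 1032 when 1 array was left out. Signs turned only for values that had not passed: over time in wild type Ccn3 was at 0.03 after quantile normalization and -0.08 to 0.04 when 1 array was left out, and Lats2 at 0.0034 with array medians set equal and -0.07 to 0.04; over time in the knockout Tead1 ran from -0.13 to 0.005 and Ccn5 from -0.04 to 0.17; and the Tead1 difference of time effects was -0.01 with the mean of its probe sets and -0.0041 to 0.15. The cause was not tested. Of other calls, Ccn2 over time in wild type did not pass without the intensity trend (0.60, adjusted p = 0.0576), and Ccn3 passed for the difference of time effects with a filter at the 50th percentile (0.48, adjusted p = 0.0494). Same-numbered arrays of different groups had deviations that correlated at -0.456 to 0.454, and an array's best match in another group had its number in 12 of 36 cases, so the numbers were not taken as pairs. With the replicate number as a block 10, 9, 9, 4, 8 and 8 of the genes were called at 18 h, at 30 h, averaged, over time in wild type and in the knockout, and for the difference, where Ccn3 was the added one (0.48, adjusted p = 0.0279). Array signal over background is not stated in the file, so no detection limit can be given.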

Other observations

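Ccn6, the remaining CCN gene on the array, was examined after the values of the others were seen. Its probe set read 126 to 205 in all 12 arrays, with the genotypes and times overlapping, and it lay below the filter on low values, so it was not tested.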
